A study of Mus musculus with 2 samples.

Results

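Mineralization and phosphate handling genes were read out in 2 RNA-seq libraries of mouse primary chondrocytes, the cells of cartilage, grown ex vivo as micromass cultures (dense drops of cells that lay down cartilage-like matrix). The set holds 10 genes, fixed by name as Alpl, Phospho1, Smpd3, Slc20a1, Panx3, Ibsp, Enpp1, Ank, Spp1 and Mgp. All 10 were found by symbol among the 13138 genes of the authors' deposited table. In the first library the cells of strain C57Bl/6 had received an adenovirus that carries Cre recombinase, an enzyme that excises DNA between loxP sites, and the genotype is labelled hdac3-knockout. In the second, cells of the same strain had received a control adenovirus that carries GFP, a fluorescent protein, and the genotype is labelled wild-type. The labels give no floxed allele, no age, and no number of animals or dishes per library. The series addressed the effect of losing Hdac3, a histone deacetylase found in corepressor complexes, on gene expression in chondrocytes.

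Mineral in growing cartilage starts in matrix vesicles, small membrane sacs shed by maturing chondrocytes, where calcium and inorganic phosphate form apatite crystals. Phosphate is set free by phosphatases and carried in by transporters, while pyrophosphate, made outside the cell or exported from it, blocks crystal growth. Acidic matrix proteins then help crystals to start or hold them back, and matrix Gla protein keeps cartilage and vessel walls free of calcium. By these textbook roles 6 members were counted as promoters of mineralization (Alpl, Phospho1, Smpd3, Slc20a1, Panx3 and Ibsp) and 4 as inhibitors (Enpp1, Ank, Spp1 and Mgp).

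Values were taken as the authors deposited them, as log2 normalized counts, and every difference is the Cre-labelled library minus the GFP-labelled library. With 1 library a group no difference has a replicate check, no test was possible and no p-value is given, so a difference describes this pair of libraries and not the conditions. Read totals are not in the table, which leaves sequencing depth unknown. Folds are folds of the deposited values, which appear to be shrunken for less abundant genes, as described under the processing. The comparison took in the 12809 genes whose mean normalized count was 50 or more (5.64 in log2), and all 10 members passed. Hdac3 itself was at 10.68 in the Cre-labelled library and 10.69 in the GFP-labelled library. Its total therefore gave no sign of the labelled knockout, and both libraries are named by label only. The value covers the whole gene, so a loss of some exons alone could not be seen.

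The members' differences ran from -1.15 for Smpd3 to 1.36 for Spp1. Of 10 members, 1 (Spp1) was at least 2-fold higher in the Cre-labelled library, against 0.734% of all compared genes, and 1 (Smpd3) was at least 2-fold lower, against 0.0703% of all. Adding Mgp, 3 of 10 (30%) differed by 1.5-fold or more in either direction, against 3.2% of all. The median of the 10 differences was -0.20, where the median of all compared genes was -0.00041, and 8 of 10 lay below 0, against 50.1% of all. The 8 include Phospho1 at -0.01, too close to 0 to give it a direction. The members were chosen with earlier results of these data known, so these shares describe the values and lend no independent support. The shares over all genes were not matched for level. At a mean of 13 or more, where Spp1 and Mgp lie, 20 of 520 genes reached 2-fold.

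**Figure D1:**
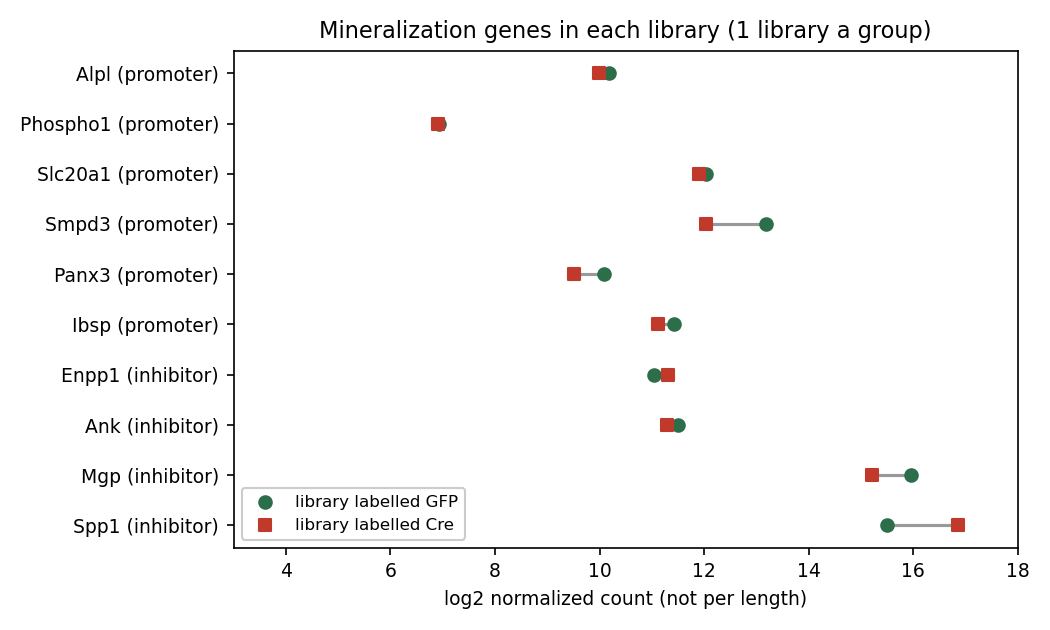
The log2 normalized count of each member in the GFP-labelled library (circles) and in the Cre-labelled library (squares), 1 library each, joined by a line, with the assigned role in brackets. Spp1 and Smpd3 have the widest gaps, in opposite directions, and the points of Phospho1 at 6.91 and 6.92 lie on top of each other.

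Spp1 and Enpp1 were the 2 members with a higher value in the Cre-labelled library, and Ibsp, the nearest measured gene on the left of Spp1 on chromosome 5, was on the other side of 0. The upstream sequence of these 3 genes is shown for that reason. Each window holds the 250 bases before the RefSeq start (build GRCm38.p6), 5′ to 3′ on the gene's strand. Capitals mark matches to the RUNX core (TGTGGT, of the skeletal factors of the Runx family), AP-1 (TGANTCA) and C/EBP (TTNNGNAA), searched on both strands. The windows are chr5:104434861-104435110 on the plus strand for Spp1, chr10:24712160-24712409 on the minus strand for Enpp1 and chr5:104299037-104299286 on the plus strand for Ibsp.
Spp1: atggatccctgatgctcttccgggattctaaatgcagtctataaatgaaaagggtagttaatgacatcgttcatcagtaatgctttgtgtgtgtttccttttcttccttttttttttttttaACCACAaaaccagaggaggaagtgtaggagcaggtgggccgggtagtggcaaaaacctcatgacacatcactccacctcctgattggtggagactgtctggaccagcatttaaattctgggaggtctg
Enpp1: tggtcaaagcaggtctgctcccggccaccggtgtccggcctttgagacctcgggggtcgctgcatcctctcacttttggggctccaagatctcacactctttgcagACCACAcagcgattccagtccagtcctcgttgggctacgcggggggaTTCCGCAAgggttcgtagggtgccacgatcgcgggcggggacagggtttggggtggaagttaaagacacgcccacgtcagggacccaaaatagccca
Ibsp: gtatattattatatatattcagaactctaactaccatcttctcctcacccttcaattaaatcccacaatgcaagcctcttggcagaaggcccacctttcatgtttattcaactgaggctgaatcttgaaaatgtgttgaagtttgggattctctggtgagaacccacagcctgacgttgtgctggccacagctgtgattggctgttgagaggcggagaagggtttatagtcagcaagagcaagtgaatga
The windows of Spp1 and Enpp1 each held 1 RUNX core match, both on the reverse strand as ACCACA, whose first base lay 128 bases before the start in Spp1 and 144 in Enpp1. Enpp1 also held 1 C/EBP match, and the Ibsp window held none of the 3 motifs. RefSeq windows were found for 7 of the 10 members, 10 windows in all counting alternative starts, and no window was matched for Smpd3, Panx3 or Mgp. A RUNX core match was in 3 of these 10 windows, the third being that of Slc20a1, against 14% of all 32851 windows. An AP-1 match was in 1 of 10 (Phospho1), against 6.75% of all, and a C/EBP match in 2 of 10 (Enpp1 and the second start of Spp1), against 36.8% of all. The matches are letters in a window and not measured sites. The members with a RUNX core match differed by -0.13 (Slc20a1), 0.27 (Enpp1) and 1.36 (Spp1). A link between a motif and the differences was not tested.

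Alpl encodes tissue-nonspecific alkaline phosphatase, which cleaves pyrophosphate to phosphate at the vesicle surface (chromosome 4, 137741733 to 137796384, GENCODE M21 on GRCm38, minus strand). It was at 9.99 in the Cre-labelled library and 10.18 in the GFP-labelled library, a difference of -0.19. Among 2597 genes with a mean level within 0.5 log2 of its own, 8.66% lay as far or farther below 0. The gap was thus small beside that of Smpd3 or Spp1 and of a size shared by many genes of like abundance.

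Phospho1, a phosphatase that frees phosphate from phosphocholine inside the vesicle (chromosome 11, 95824499 to 95832140, plus strand), was the least abundant member. It was at 6.91 in the Cre-labelled library and 6.92 in the GFP-labelled library, a difference of -0.01, and its sign turned to 0.0032 under equal-total scaling that left out Rn45s and Lars2. None of the 1344 compared genes with a mean below 7 reached 2-fold, and the widest difference among them was 0.70, so a value near 0 says little at this abundance. Of its 2029 exon bases, 1818 are also annotated as exon of Zfp652 on the same strand and 1708 as exon of Abi3 on the other, so its count depends on how shared reads were treated. Zfp652 and Abi3 differed by -0.0017 and 0.06.

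Smpd3 encodes neutral sphingomyelinase 2, which splits sphingomyelin into ceramide and phosphocholine, the substrate of Phospho1, and is needed for skeletal mineralization. It lies on chromosome 8 at 106252548 to 106337988, on the minus strand. Its log2 value was 12.03 in the Cre-labelled library and 13.19 in the GFP-labelled library, a difference of -1.15, which left 45.0% of the level in the GFP-labelled library. It was the 5th lowest difference of 12809 genes, and 0 of 773 genes of like abundance lay as far below 0. Prmt7, on the other strand, shares 247 of the 5232 exon bases of Smpd3 and differed by -0.17. The genes closest to Smpd3 in their difference, among 1575 genes with a mean within 1 log2, were the BMP antagonist gene Chrdl1 at -1.01 and the mineral-binding proteoglycan gene Omd at 11.94 against 12.93, a likeness that rests on 2 libraries.

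Slc20a1 encodes PiT1, a sodium-coupled transporter that brings phosphate into the cell (chromosome 2, 129198764 to 129211616, plus strand). It was at 11.90 in the Cre-labelled library and 12.03 in the GFP-labelled library, a difference of -0.13, and 17.3% of 1306 genes of like abundance lay as far below 0. Panx3 encodes a channel that releases ATP from maturing chondrocytes and osteoblasts and favours their differentiation (chromosome 9, 37659902 to 37669235, minus strand). It was at 9.51 against 10.08, a difference of -0.57 or 1.48-fold higher in the GFP-labelled library, just short of 1.5-fold. Of 2640 genes of like abundance, 0.833% lay as far below 0, so Panx3 stood second to Smpd3 among the promoters of mineralization.

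Ibsp encodes bone sialoprotein, an acidic matrix protein that nucleates apatite (chromosome 5, 104299171 to 104311469, plus strand). It was at 11.12 in the Cre-labelled library and 11.42 in the GFP-labelled library, a difference of -0.30, with 3.47% of 2016 like genes as far below 0. All 6 promoters of mineralization therefore lay below 0, with a median of -0.25 and a range from -1.15 to -0.01, 1 of them at 2-fold. The difference of Phospho1 was too close to 0 to give it a direction.

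The inhibitors did not share a direction. Enpp1 encodes the ectoenzyme that makes pyrophosphate from ATP outside the cell (chromosome 10, 24637914 to 24712159, minus strand), and it was at 11.31 in the Cre-labelled library and 11.04 in the GFP-labelled library, a difference of 0.27. Ank encodes a membrane protein through which ATP and pyrophosphate leave the cell (chromosome 15, 27466677 to 27594909, plus strand), and it was at 11.30 against 11.51, a difference of -0.21. Of genes of like abundance, 6.79% lay as far above 0 as Enpp1 and 8.08% as far below 0 as Ank. The source of extracellular pyrophosphate and its exporter thus differed in opposite directions, both by less than 1.5-fold.

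Mgp encodes matrix Gla protein, a small vitamin K-dependent inhibitor of calcification (chromosome 6, 136872435 to 136875823, minus strand). It was at 15.21 in the Cre-labelled library and 15.95 in the GFP-labelled library, a difference of -0.74 or 1.67-fold higher in the GFP-labelled library. It was the 54th lowest of 12809 differences. Only 44 other genes were as abundant, with an SD of 0.409, and 2 of them lay as far below 0.

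Spp1 encodes osteopontin, a phosphorylated acidic protein that binds apatite, slows its growth and also acts as a cytokine (chromosome 5, 104435118 to 104441050, plus strand). It was at 16.85 in the Cre-labelled library and 15.50 in the GFP-labelled library, a difference of 1.36 or 2.56-fold, the 42nd highest of 12809. Of 20 genes of like abundance 0 lay as far above 0, and the highest of them was at 1.29. That gene was the iron storage gene Fth1, which with the collagenase gene Mmp13 (1.84) was closest to Spp1 in its difference among 49 genes with a mean within 1 log2, over 2 libraries. The 4 inhibitors had a median of 0.03 and a range from -0.74 to 1.36, with 2 above and 2 below 0.

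The median of the promoters of mineralization lay 0.28 below that of the inhibitors (-0.25 against 0.03). The inhibitors' range enclosed 5 of the 6 promoters, all but Smpd3. The gap changed with the genes counted: without Spp1 the inhibitors' median was -0.21 and the promoters' median minus theirs was -0.039. With all 4 inhibitors the median lies midway between Ank (-0.21) and Enpp1 (0.27). The size of the Spp1 difference therefore does not enter it, and no other inhibitor was left out in turn. With 6 and 4 genes and 1 library a group, the roles were not separated by these values. Exon bases are also shared in Slc20a1 (452 with the antisense gene 9830144P21Rik) and in Spp1 (309 with the gene model Gm42793), and neither partner was in the table.

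**Figure D2:**
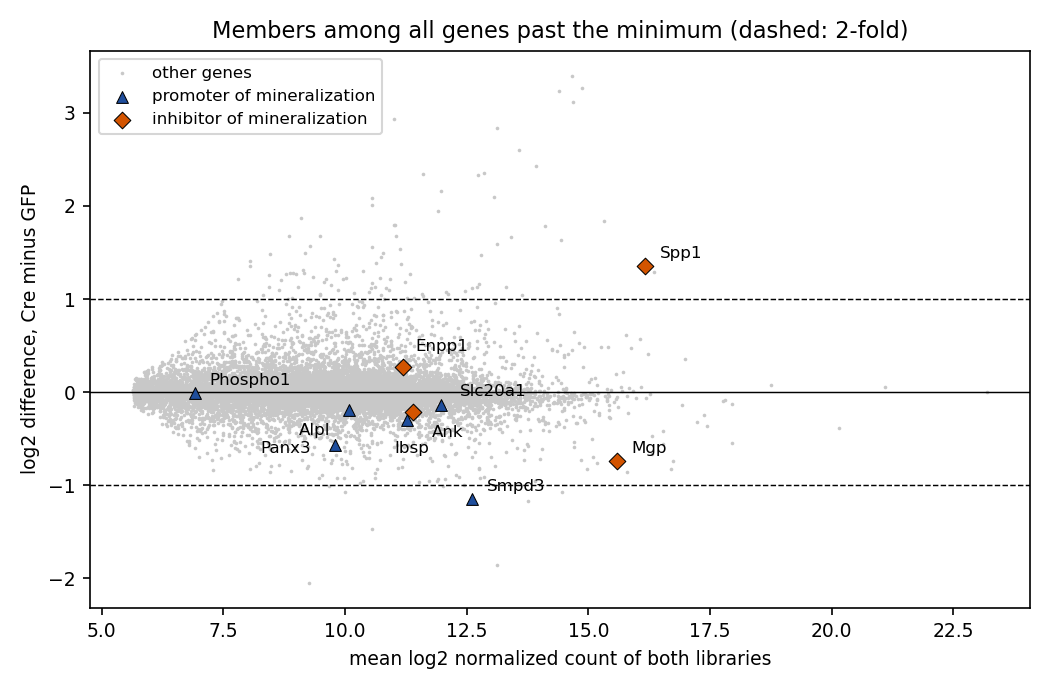
Each point is a gene past the minimum, with its mean log2 normalized count on the horizontal axis and its log2 difference, Cre minus GFP, on the vertical axis. Triangles are promoters and diamonds inhibitors of mineralization, dashed lines mark 2-fold, and Spp1 at 1.36 and Smpd3 at -1.15 are the members beyond them.

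Ratios within a library do not depend on how the libraries were scaled. Their size does depend on the length taken for each gene, here the exon union, while their change between the libraries does not. Per kilobase of exon, Alpl was 1.02 times the level of Enpp1 in the Cre-labelled library and 1.40 times in the GFP-labelled library, so the ratio of the pyrophosphate-cleaving to the pyrophosphate-making enzyme was 1.38-fold higher in the GFP-labelled library. The ratio of Alpl to Ank was nearly the same in both, at 0.361 and 0.357. The ratio of Smpd3 to Phospho1, consecutive enzymes of one phosphocholine route, was 13.5 in the Cre-labelled library and 29.8 in the GFP-labelled library. The size of this ratio depends on how reads from the exon bases that Phospho1 shares with Zfp652 and Abi3 were treated. Spp1 was 2.25 times the level of Mgp in the Cre-labelled library and 0.524 times in the GFP-labelled library, a 4.28-fold gap between the abundant matrix inhibitors.

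Spp1 and Mgp were far above the other members in level per length. Normalized counts per kilobase of exon were 71818 for Spp1 and 31970 for Mgp in the Cre-labelled library, and 28054 and 53498 in the GFP-labelled library. Their order was thus exchanged between the libraries. Below them came Ibsp (1076), Smpd3 (802), Ank (697), Slc20a1 (684), Alpl (251), Enpp1 (247), Panx3 (213) and Phospho1 (59.4) in the Cre-labelled library. In the GFP-labelled library the order was Smpd3 (1781), Ibsp (1325), Ank (805), Slc20a1 (751), Panx3 (315), Alpl (288), Enpp1 (206) and Phospho1 (59.9). Smpd3 was above Ibsp in the GFP-labelled library and below it in the other. Panx3 was above Alpl and Enpp1 in the GFP-labelled library and below both in the other. The exchange of Panx3 and Alpl rests on the exon union as length. Their longest transcripts are nearly equal, at 2531 and 2522 bases. By that length Panx3 lay below Alpl in both libraries, since its log2 value was the lower in each (9.51 against 9.99 and 10.08 against 10.18). Without replicates it cannot be said which neighbours in these orders differ beyond their spread. The level per length of Phospho1 also depends on the treatment of reads from the exon bases it shares with Zfp652 and Abi3. Of the summed normalized counts of the 10 members, Spp1 held 68.2% in the Cre-labelled library and 34.7% in the GFP-labelled library, and Mgp 21.9% and 47.6%.

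**Figure D3:**
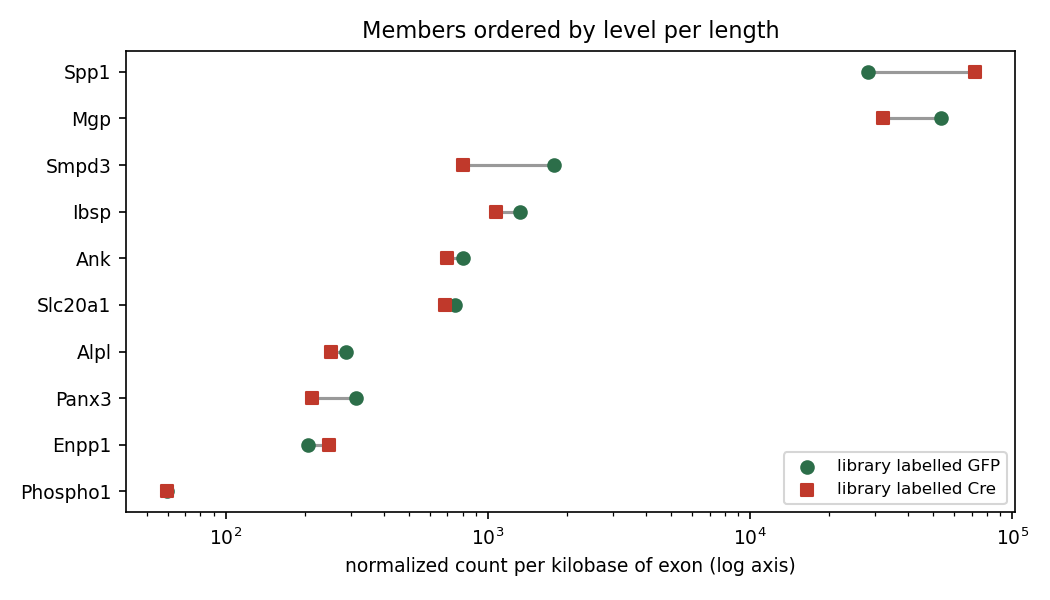
Normalized count per kilobase of exon (log axis) of each member in the GFP-labelled library (circles) and in the Cre-labelled library (squares), ordered by the mean of both. Spp1 and Mgp stand above all others and change places between the libraries. Phospho1 is lowest in both, and its level depends on how reads from exon bases shared with other genes were treated.

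Spp1 and Ibsp lie in the chromosome 5 cluster of acidic bone and tooth matrix genes, 123.6 kb apart. Dmp1, which encodes a further acidic protein of the cluster and lies left of Ibsp, differed by -0.14, at 6.22 against 6.35. Pkd2, the polycystin gene right of Spp1, differed by 0.15, at 12.54 against 12.39. The cluster genes Mepe and Dspp were not in the table and were not analysed here. Within the cluster Spp1 was therefore the 1 measured gene with a difference of 2-fold. Dmp1 had a mean below 7, where none of the 1344 compared genes reached 2-fold, so its value says little here. The cluster was examined after its values were seen.

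**Figure D4:**
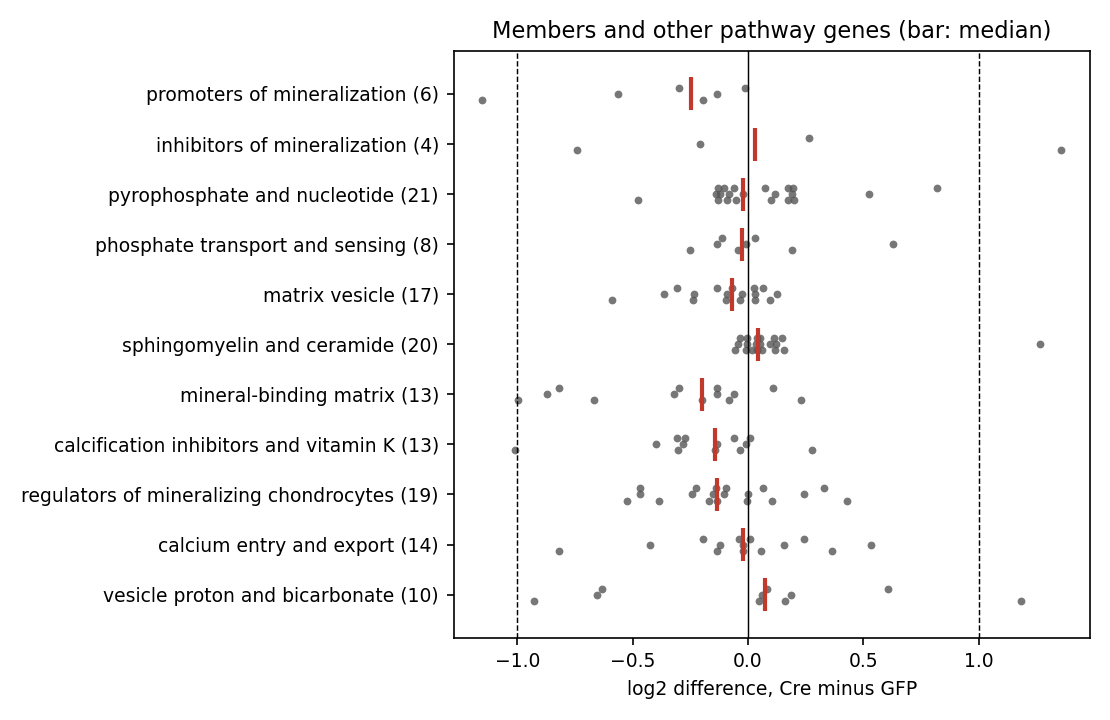
The log2 difference, Cre minus GFP, of each measured gene of the members' roles and of 9 lists of other pathway genes, with the number of genes in brackets, the median as a bar and 2-fold as dashed lines. The other pathway lists have medians between -0.20 and 0.07, and single genes such as Sphk1 at 1.27 and Chrdl1 at -1.01 lie past 2-fold, Chrdl1 by a margin that scaling to equal totals leaving out Rn45s and Lars2 removes.

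Other genes of the pathway were taken from 9 lists. Counts above or below 0, here and for the cell type markers, stand beside 50.1% of all compared genes below 0. These counts take no account of size and include values close to 0. Among pyrophosphate, ATP and adenosine genes 10 of 21 lay above 0 and the median was -0.02. The adenosine receptor gene Adora1 differed by 0.82, the ATP-gated channel gene P2rx4 by 0.52, the ATP-cleaving ectoenzyme gene Entpd1 by -0.48 and the nucleoside transporter gene Slc29a1 by 0.20. Phosphate transport and sensing genes had a median of -0.03 over 8, with 3 above 0. In that list Fam20c, which encodes the kinase that phosphorylates osteopontin and other secreted proteins, was at 11.42 against 10.79, 1.55-fold higher in the Cre-labelled library. Phex, an endopeptidase gene of phosphate balance, differed by -0.25, the growth factor receptor gene Fgfr1 by 0.19 and Dmp1 by -0.14.

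The matrix vesicle list also holds genes of general cell function, such as Gpd1. It had a median of -0.07 over 17, with 11 below 0 and 0 past 2-fold. Gpd1 differed by -0.59, the annexin genes Anxa11 and Anxa6 by -0.37 and -0.24, and the tetraspanin gene Cd9 by -0.31, while the annexin genes Anxa2 and Anxa5 differed by 0.03 and -0.10. Of 20 sphingomyelin and ceramide genes 14 lay above 0, with a median of 0.05. Sphk1, which encodes a kinase that makes sphingosine 1-phosphate, was at 9.42 against 8.16, 2.40-fold higher in the Cre-labelled library, and was the 1 gene of that list past 2-fold. Degs1 differed by 0.16, Asah2 by 0.15 and Smpd4 by 0.12.

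Paralogues of the members and further sphingomyelinase genes, chosen after their values were seen, were closer to level than Smpd3 and Panx3. The sphingomyelinase genes Smpd1, Smpd2 and Smpd4 differed by -0.033, -0.0059 and 0.12. The pannexin genes Panx1 and Panx2 differed by 0.17 and -0.13, and the second PiT gene Slc20a2 by -0.01. Anxa2, Anxa5 and the genes of this paragraph other than Smpd4 and the members are named outside the rule for named genes.

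Of 13 genes in the mineral-binding matrix list, which also holds collagens and other matrix genes, 11 lay below 0, with a median of -0.20. In that list 4 of 13 were at least 1.5-fold lower in the Cre-labelled library, against 0.952% of all compared genes. Sparc differed by -0.08, and Bglap and Dmp1, both at low abundance, by -0.06 and -0.14. Sparc and Bglap are named outside the rule for named genes. Omd was at 11.94 against 12.93, Col10a1, the collagen of hypertrophic cartilage, at 10.19 against 11.06, the calcium-binding Smoc2 at 12.35 against 13.17 and the cartilage lectin gene Clec3a at 11.93 against 12.60. Calcification inhibitors and vitamin K genes had 11 of 13 below 0 and a median of -0.14. Chrdl1 was 2.01-fold higher in the GFP-labelled library, Tnfrsf11b (osteoprotegerin) differed by -0.40, Ucma, a second Gla protein of cartilage, by -0.31, and the BMP antagonist gene Nog by -0.30. Ggcx, the carboxylase that modifies Mgp and Ucma, differed by -0.27 and Vkorc1, which recycles its vitamin K cofactor, by -0.28, both named after their values were seen.

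Of 19 regulators of mineralizing chondrocytes 13 lay below 0, with a median of -0.13 and 0 at 1.5-fold. The parathyroid hormone receptor gene Pth1r differed by -0.53, the transcription factor genes Sp7 and Mef2c each by -0.47, and the vitamin D receptor gene Vdr by 0.43. Calcium entry and export genes had a median of -0.02 over 14. Fam38b, the older symbol of the mechanosensitive channel gene Piezo2, was 1.77-fold higher in the GFP-labelled library, the calcium pump gene Atp2b4 differed by 0.53, Itpr3 by -0.42 and the exchanger gene Slc8a1 by 0.36. Proton and bicarbonate genes spread widest around a median of 0.07 over 10. The carbonic anhydrase gene Car9 was 2.27-fold and Car13 1.53-fold higher in the Cre-labelled library, while Car3, Car8 and the sulfate transporter gene Slc26a2 were 1.90-fold, 1.55-fold and 1.57-fold higher in the GFP-labelled library.

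Markers of cell types were read beside the members, because in bulk RNA fewer cells of a type and less RNA per cell cannot be told apart. All 9 chondrocyte markers were in the table and all lay below 0, from -0.89 for Matn3 to -0.04 for Comp, and their summed normalized counts were 1553918 in the Cre-labelled library and 2115269 in the GFP-labelled library. Smpd3 at -1.15 lay below each of the 9, and Mgp, Panx3, Ibsp, Alpl, Ank and Slc20a1 lay within their range. The labelled cell type thus had its defining markers in both libraries, Col2a1 at 19.97 and 20.35 and Acan at 16.29 and 17.12. The part of a general change of chondrocyte RNA in the members' values was not tested.

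Spp1 is also made by macrophages and osteoclasts. Of 14 such markers 11 were in the table and 9 lay above 0, with a median of 0.58. At least 2-fold higher were 3 of 11, against 0.734% of all compared genes. At least 1.5-fold higher were 5 of 11, against 288 of all 12809. Their summed normalized counts were 54786 in the Cre-labelled library and 35609 in the GFP-labelled library, 1.54-fold, with Lyz2 the highest at 14.82 against 13.98. Emr1, the older symbol of the macrophage surface gene Adgre1, was at 12.62 against 11.54, Acp5 at 10.01 against 8.97, Cd14 at 11.27 against 10.23, and the lysozyme genes Lyz1 and Lyz2, which are similar copies, differed by 0.91 and 0.84. The integrin gene Itgam differed by 0.58 and Ptprc by 0.26. The receptor gene Csf1r was at 11.43 against 11.34, Ctsk and Cd68 differed by 0.10 and -0.05, and Mrc1 by -0.73. The osteoclast markers Calcr, Ocstamp and Dcstamp were not in the table and were not analysed here. The part of these cells in the higher Spp1 was not tested.

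Of 5 hypertrophic chondrocyte markers 4 were in the table, Mmp13 above 0 and Col10a1, Sp7 and Runx2 below it, so Spp1 and Mmp13 differed in the direction opposite to Col10a1. All 5 osteoblast markers in the table lay below 0, with a median of -0.14 and 0 at 1.5-fold, and the summed values were 119070 and 130898, most of it Col1a1. Bglap, the osteocalcin gene, was at 5.90 and 5.96, near the minimum. Smooth muscle and perivascular cells also make Mgp. Of 6 such markers 4 were in the table, and Cnn1 and Myh11 were not. Acta2, Tagln and Cspg4 lay below 0 (-0.68, -0.58 and -0.40) and Rgs5 above it (0.33). Summed values were 13240 in the Cre-labelled library and 18589 in the GFP-labelled library, with Cspg4 the highest at 12.96 against 13.36. The part of these cells in the lower Mgp was not tested. Endothelial markers (median 0.10 over 3, sums of 525 and 502) and adipocyte markers (median -0.10 over 4, sums of 24098 and 22302) were close to level.

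**Figure D5:**
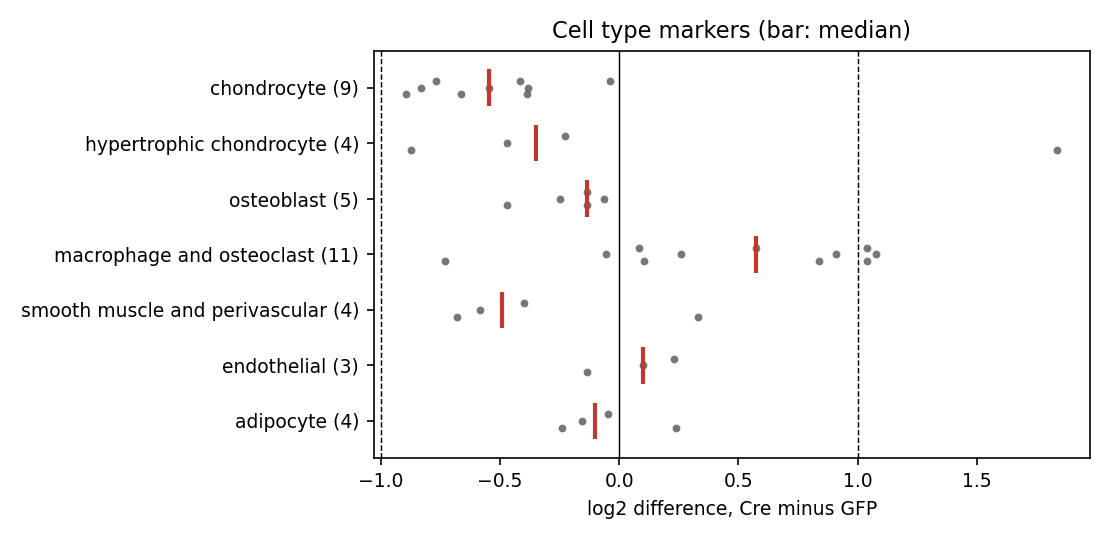
The log2 difference, Cre minus GFP, of each measured marker of 7 cell types, with the number of genes in brackets, the median as a bar and 2-fold as dashed lines. All 9 chondrocyte markers lie below 0 and 9 of 11 macrophage and osteoclast markers above it, and the single hypertrophic marker past 2-fold is Mmp13 at 1.84.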

How the data were processed

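RNA of micromass cultures was sequenced as 2 libraries, 1 in each group. Per the labels' protocols, TRIzol was used for total RNA and an Illumina TruSeq v2 mRNA kit for the libraries. The source field of both samples names an acetylation ChIP, while title, library source and table describe RNA. Per the submitters' processing notes, the tools and build were HTSeq (no version), TopHat2 2.0.6, bcl2fastq 1.8.4 and the build mm10. Not given in the sources used here are the annotation, the strand setting and the treatment of reads shared by genes.

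The authors deposited log2 normalized counts, with 1 column per library and their mean and difference, for 13138 genes. The transform is not stated: a regularized log is inferred from the heading rLogFC and from the narrow spread of less abundant genes (SD of the difference 0.15 for means from 5.64 to 7 and 0.23 from 9 to 11). The difference as deposited is GFP minus Cre in all 13138 rows (tolerance 1e-06), and its sign was turned here. Depth is unknown, so no counting interval can be given.

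Genes with a mean of at least 50 were kept, 2-fold was the threshold and no test was run. Levels per length used the union of GENCODE M21 exons. List genes missing under their symbol were looked up by RefSeq synonym, a step added after the table was seen. In each of the 9 lists of other pathway genes up to 4 genes with the largest absolute difference were named, and any at 1.5-fold. Cell type markers were outside this rule and were named after their values were seen. The members, lists and rules were chosen with earlier results of these data known. Counting was tested on simulated data. Alternatives were other scalings, minimums, thresholds, means, left-out members and transcript lengths. Python 3.11.15, pandas 2.3.3, numpy 2.4.6 and matplotlib 3.10.9 were used.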

Additional observations from a re-analysis of the deposited data

How the results depend on the processing

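All alternatives were planned. The scalings moved every gene alike, by 0.00041 (median), 0.0077 (same total in both) and 0.015 (same total, Rn45s and Lars2 left out) in log2, and of 30 member differences recomputed under them 30 moved by less than 0.1 and 1, that of Phospho1, turned sign. Of 27 alternative values for the medians of the roles and their difference, 22 stayed within 0.1. With means in place of medians the promoters of mineralization were at -0.39, the inhibitors at 0.17 and their difference at -0.56. Without Spp1 the inhibitors' median turned to -0.21 and the difference was -0.039. The genes at least 2-fold lower went from 9 to 8 and 7 under the scalings to the same total, and Chrdl1 was at -0.993 under the last of these, short of 2-fold. At 1.5-fold 288 genes were higher and 122 lower, and 2 members were lower. At 4-fold 15 genes were higher and 1 lower, and 0 members were higher and 0 lower. Of 54 alternative list medians 52 stayed within 0.1 and 4 turned sign, those of the pyrophosphate (0.06 by the mean, 0.07 at a minimum of 500) and phosphate transport lists (0.04 and 0.01). The mineral-binding matrix list moved to -0.33 by the mean and -0.31 at a minimum of 500. With the longest transcript as length, Mgp came before Spp1 and Slc20a1 before Ibsp and Ank in the order by the mean of both libraries. The change of the Alpl to Enpp1 ratio between the libraries had no alternative, since neither scaling nor the length used can move it. The ratio within each library was not recomputed with the longest transcript as length. Replicated tests were not run. No paired analysis was possible because only 1 library stands in either group. Unknown depth and the apparent shrinkage limit the reading of Phospho1.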
